A study of Mus musculus with 16 samples.

Results

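The genes described here are 10 markers of pericentral hepatocytes and targets of Wnt signalling, taken by symbol from a liver count table of 54752 genes: Glul, Oat, Slc1a2, Slc1a4, Cyp2e1, Cyp1a2, Axin2, Lgr5, Rnf43 and Tbx3. All 10 were found and all 10 passed the filter on low counts. The table holds 16 liver libraries from male mice aged 11 weeks, all Ercc1Δ/−, F1 hybrids of C57BL6J and FVBN, with 4 animals on each of 4 diets that began at 8 weeks of age. Ercc1 encodes a subunit of a nuclease used in nucleotide excision repair, and these animals carry 1 truncated and 1 null allele and age early. No animal with intact Ercc1 was analysed here.

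The high protein diet held about 194% of the standard protein and 70% of the standard carbohydrate. The low fat diet held 70% of the standard fat and about 112% of the standard carbohydrate. The low protein diet held 70% of the standard protein and about 112% of the standard carbohydrate. Control animals stayed on the standard AIN93G diet that every animal had eaten before. The diets were balanced for energy and fed freely, so protein or fat changed together with carbohydrate in each of them.

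The liver lobule is zoned between the portal triad, where blood enters, and the central vein, where it leaves. Endothelial cells of the central vein release the Wnt ligands Wnt2 and Wnt9b and the co-ligand Rspo3, which stabilise β-catenin in the nearest hepatocytes and so hold up the pericentral program there. The last layer of hepatocytes takes up glutamate and ammonia that periportal cells did not use and turns them into glutamine. Most urea synthesis, gluconeogenesis and amino acid breakdown sits on the periportal side, while pericentral cells carry much of the cytochrome P450 activity.

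Of the genes of glutamate and amino acid handling, Glul (chromosome 1, 153899944 to 153909723 on build GRCm38) encodes glutamine synthetase. Oat (chromosome 7, 132557478 to 132576398) encodes ornithine aminotransferase, which passes the amino group of ornithine on to form glutamate. Slc1a2 (chromosome 2, 102658659 to 102790784) encodes a high-affinity glutamate transporter, and Slc1a4 (chromosome 11, 20302180 to 20332713) an exchanger of small neutral amino acids. Cyp2e1 (chromosome 7, 140763739 to 140774987) and Cyp1a2 (chromosome 9, 57676937 to 57683703) encode cytochromes P450, the first known for ethanol and acetone and the other for caffeine.

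Among the Wnt pathway targets, Axin2 (chromosome 11, 108920349 to 108950783) encodes a scaffold of the complex that degrades β-catenin. Rnf43 (chromosome 11, 87662722 to 87735539) encodes a ubiquitin ligase that removes Frizzled receptors from the cell surface. Lgr5 (chromosome 10, 115450311 to 115587780) encodes an R-spondin receptor, and Tbx3 (chromosome 5, 119670669 to 119684724) a T-box transcription factor.

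The promoters of Slc1a2, Oat and Cyp2e1 are shown because levels of these 3 genes varied together over the libraries. Each is the RefSeq sequence of build GRCm38.p6 from 250 bases before to 50 bases after the RefSeq start, 5′ to 3′ on the strand of the gene. Capitals mark CTTTGA or its other strand TCAAAG, the core letters of the motif bound by TCF and LEF factors, which act with β-catenin. The windows are chr2:102706188-102706487 on the plus strand for Slc1a2, which lies inside the gene span of the count table, chr7:132576349-132576648 on the minus strand for Oat, and chr7:140763569-140763868 on the plus strand for Cyp2e1.
Slc1a2: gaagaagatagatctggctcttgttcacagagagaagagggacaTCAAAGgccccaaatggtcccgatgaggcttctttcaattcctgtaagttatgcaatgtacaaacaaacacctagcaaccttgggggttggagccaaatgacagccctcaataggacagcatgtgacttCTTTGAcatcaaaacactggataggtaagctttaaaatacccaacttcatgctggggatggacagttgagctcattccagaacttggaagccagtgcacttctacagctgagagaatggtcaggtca
Oat: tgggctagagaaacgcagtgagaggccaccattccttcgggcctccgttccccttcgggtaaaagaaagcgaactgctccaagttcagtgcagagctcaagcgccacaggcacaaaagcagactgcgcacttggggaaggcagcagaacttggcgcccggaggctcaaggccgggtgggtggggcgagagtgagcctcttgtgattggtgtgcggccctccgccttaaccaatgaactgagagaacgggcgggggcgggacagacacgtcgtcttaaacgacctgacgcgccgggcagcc
Cyp2e1: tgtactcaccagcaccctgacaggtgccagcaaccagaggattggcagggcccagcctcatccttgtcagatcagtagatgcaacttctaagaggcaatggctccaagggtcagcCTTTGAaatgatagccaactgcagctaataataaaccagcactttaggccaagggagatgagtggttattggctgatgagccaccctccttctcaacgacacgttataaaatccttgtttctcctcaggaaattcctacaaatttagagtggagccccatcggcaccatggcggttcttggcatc

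In Slc1a2 the motif begins 206 bases (TCAAAG) and 77 bases (CTTTGA) upstream of the start, and in Cyp2e1 it begins 135 bases upstream. The Oat window holds neither set of letters. Promoter entries were found for 8 of the 10 genes, and 3 of these 8 hold the motif, the other being Cyp1a2 (243 bases upstream). Of all 32851 promoters in the same table, 5257 (16.0%) hold it on either strand. The longer CTTTGAT or ATCAAAG, which contains the core, is in 1 of the 8 genes and in 3.73% of all promoters. A match of letters is a description and does not show that a factor binds.

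Library totals ran from 37317405 to 46899907 counts with high protein, 36871852 to 112789127 with low fat, 36662347 to 43404769 with low protein and 35243594 to 46051218 in control. Albumin stood at 47800 to 79800 CPM (read counts scaled by TMM library size) and marked the tissue as liver. Control 4 lay farthest from the rest of its diet, with a spread of 1.29 log2 units over genes, and control 3 was next at 1.01, against 0.43 to 0.83 for the other libraries. Kidney transcripts were present: 17 of 20 kidney genes were in the table, and their summed level was 13.6 to 1410 CPM with high protein, 938 to 2640 with low fat, 618 to 1160 with low protein and 94.7 to 4190 in control. Umod, Kap and Slc34a1 were at 0 in high protein 1 and detected in every other library. Control 3 held the 4190 CPM, and the summed level of 8 hepatocyte genes was lowest there, at 71100 CPM. The next lowest was high protein 3 at 88300 CPM. The part of this lower hepatocyte level in the levels of the 10 genes was not tested. Glul, Oat, Slc1a4 and Cyp2e1 are also expressed in kidney, so each comparison in which a gene of the 10 did not overlap between 2 diets is also given with the kidney level as a covariate. That covariate was on a log2 scale, at 3.77 in high protein 1 and 6.57 to 12.24 in the other libraries. High protein 1 therefore weighs heavily in that fit, and what kidney RNA itself added to these genes was not tested. Litter and cage are not given by the labels, and the p-values therefore reflect spread among these libraries. In bulk tissue, fewer pericentral cells and less RNA per cell cannot be told apart.

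Levels of different genes are compared as RPKM, reads scaled by exon length and library size. Cyp2e1 was the highest of the 10 at a mean level of 2650 RPKM over the 16 libraries, with a range of 1860 to 4190. Oat followed at 322, Glul at 187 and Cyp1a2 at 172 RPKM, and the ranges of these 3 genes overlapped. A wide step separated them from Slc1a2 at 7.91 RPKM, Rnf43 at 4.21, Slc1a4 at 2.91, Tbx3 at 2.75 and Axin2 at 1.61, whose ranges overlapped from each neighbour to the next. Lgr5 was the lowest at 0.538 RPKM, with 100 to 588 reads per library, and its range overlapped that of Axin2.

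**Figure D1:**
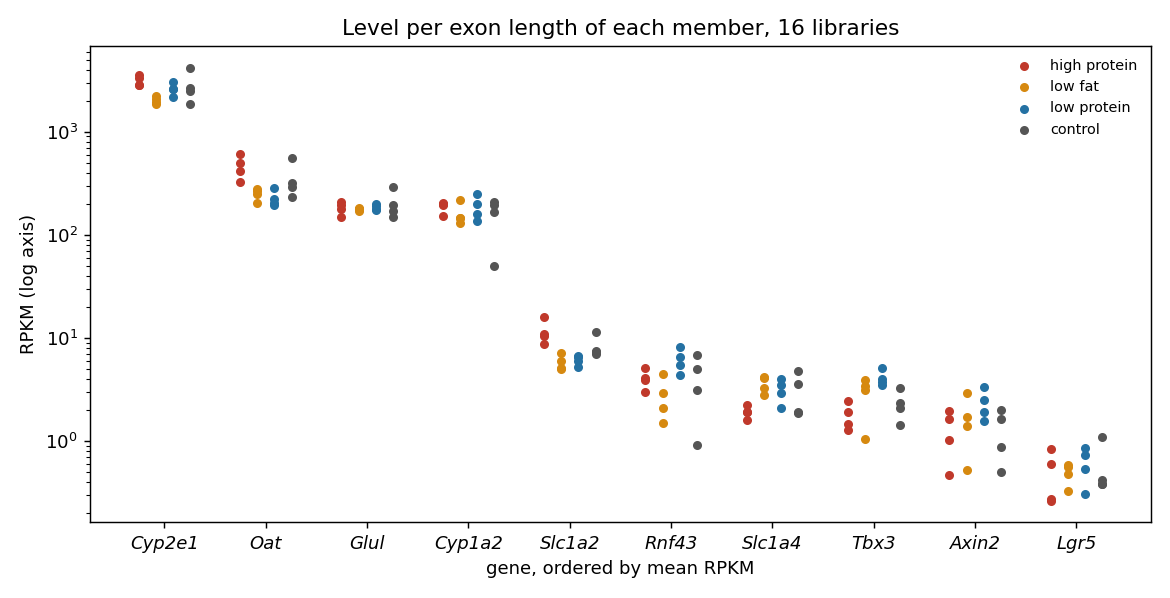
Level per exon length (RPKM, log axis) of the 10 genes in each of the 16 libraries, coloured by diet and ordered by mean. Cyp2e1, Oat, Glul and Cyp1a2 had means of 172 RPKM or more, and the other 6 genes had means of 7.91 RPKM or less.

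The genes also differed in how much they varied between animals. Glul varied least, with an SD of 0.22 (log2 CPM, 16 libraries), and Cyp2e1 was next at 0.34. The median over all 17833 genes tested was 0.4. Slc1a2, Slc1a4, Oat and Cyp1a2 stood at 0.47 to 0.53. The Wnt targets were the most variable, with 0.61 for Lgr5, 0.68 for Tbx3, 0.83 for Rnf43 and 0.88 for Axin2, and Rnf43 differed 8.96-fold between its highest and its lowest library, and 5.41-fold without control 4, the lowest.

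No gene of the table passed an adjusted p of 0.05 in any of the 6 comparisons of diets or over the 4 diets together (edgeR quasi-likelihood test, Benjamini-Hochberg), a background of 0% called. What follows is therefore a description of levels with their errors, and none of the differences passed the test over all genes. Because the 10 genes and the gene lists were chosen with earlier results of these data known, shares over all genes are given for scale only. With n = 4 against 4, an exact two-sided permutation test of a single gene can reach no p below 0.0286. The 4 libraries of one diet lay wholly to one side of those of the other in 9 of 60 comparisons of a gene between diets, in 5 of the 10 genes. Such a separation always gives that smallest p, so the p of these 9 adds nothing to it. High protein against low fat held 4 of the 9, where 8.22% of all genes were so separated. High protein against low protein held 3, with a background of 6.61%, and low protein against control held 2, with a background of 2.48%. The other comparisons held none, with backgrounds of 1.96% for high protein against control, 2.59% for low fat against control and 4.49% for low fat against low protein.

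**Figure D2:**
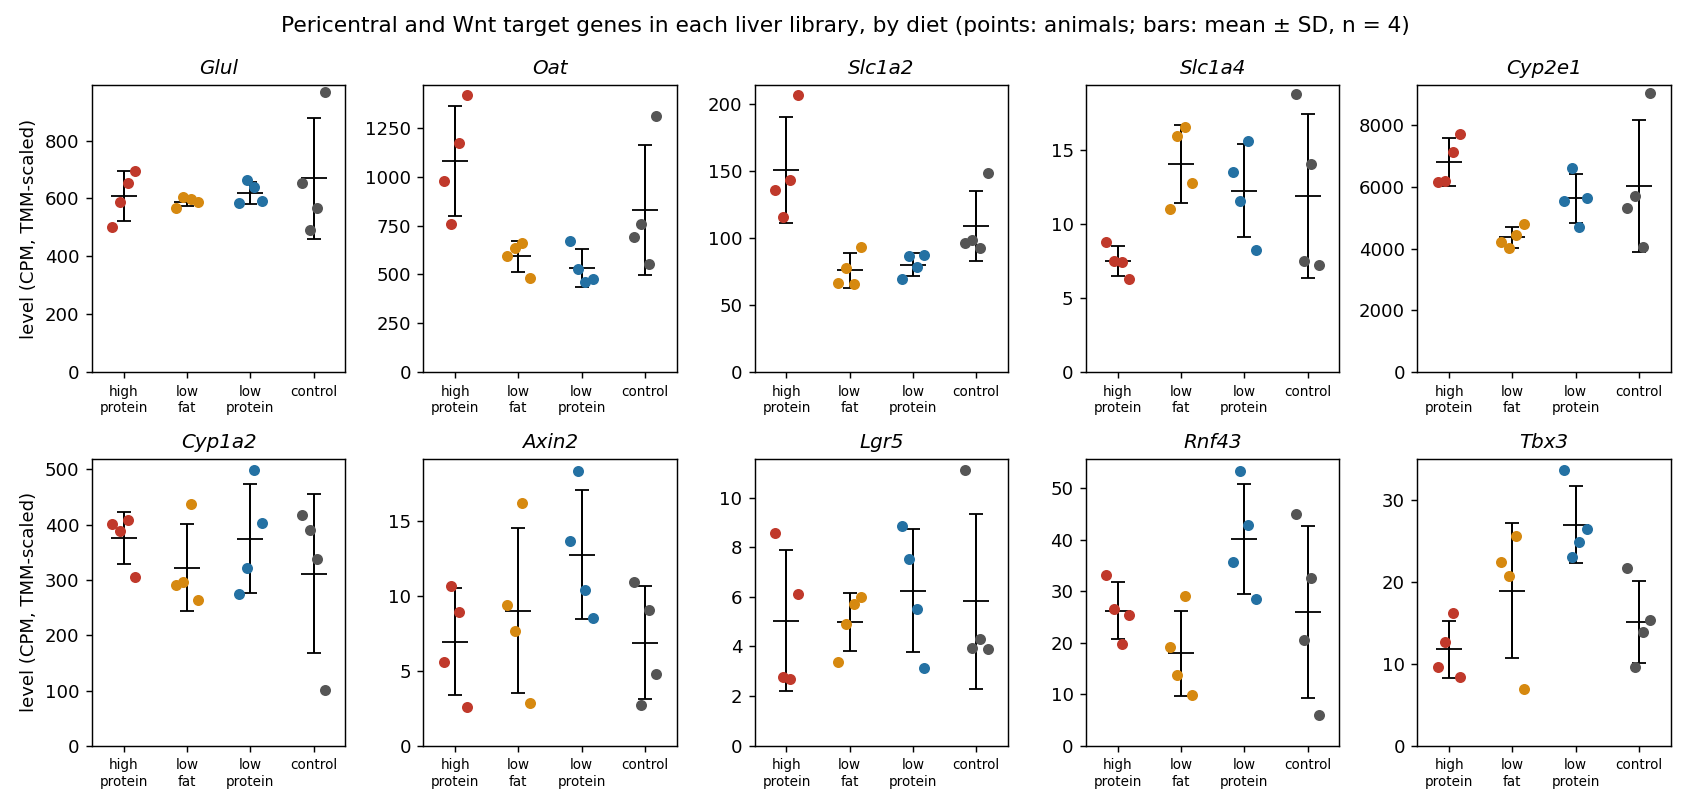
Level (CPM, linear axes from 0) of each gene in each animal, by diet. Points are animals, and bars give the mean ± SD (n = 4 per diet). Oat and Slc1a2 sit highest with high protein, Slc1a4 sits lowest there, Tbx3 is highest with low protein, and Glul means lie between 589 and 669.8 CPM on all diets.

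Glutamine synthetase was nearly level over the diets. Glul had 499.6, 587.3, 652.5 and 693.9 CPM with high protein, 567.8, 603.1, 597.9 and 587.3 with low fat, 583.4, 663.7, 637.8 and 590.4 with low protein, and 653.2, 492.5, 566.8 and 966.8 in control. All diets overlapped, and control 4 was the single high library. The log2 fold change was -0.02 (SE 0.17, 95% interval -0.39 to 0.34) for high protein against low protein and -0.14 (SE 0.17, interval -0.5 to 0.23) for high protein against control. For low fat against control it was -0.19 (interval -0.55 to 0.18), and without control 4 it was 0.02. Over the 6 comparisons the 95% intervals of Glul reached no lower than -0.55 and no higher than 0.41.

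Oat, the step before glutamate, was highest with high protein. It had 978.8, 760.1, 1174 and 1422 CPM with high protein, 592.5, 633.3, 662.9 and 482.6 with low fat, 672.0, 528.4, 459.8 and 475.3 with low protein, and 693.9, 758.2, 552.5 and 1313 in control. Every high protein library lay above every low fat and every low protein library. Control 4 lay among the high protein libraries, and the other 3 controls lay below them, with control 3 inside the low fat range.
Against low protein, Oat was 2.03-fold higher with high protein, a log2 fold change of 1.02 (SE 0.25, 95% interval 0.5 to 1.55) (edgeR, Benjamini-Hochberg adjusted p = 0.892). Against low fat it was 1.83-fold higher (log2 0.87, SE 0.25, edgeR adjusted p = 0.389). Low protein against control gave -0.64 (SE 0.25, edgeR adjusted p = 0.682), and -0.34 without control 4. High protein against control gave 0.39 (SE 0.25, edgeR adjusted p = 0.763), and 0.69 without control 4.

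Slc1a2, the glutamate transporter, was also highest with high protein, next in control and lower on the other two diets. Its level was 136.1, 115.7, 143.6 and 207.0 CPM with high protein, 66.46, 77.89, 65.60 and 93.35 with low fat, 69.18, 86.50, 78.22 and 86.98 with low protein, and 96.04, 98.63, 92.56 and 148.3 in control. High protein libraries lay above all low fat and low protein libraries, and low protein libraries below all controls. The lowest high protein library stood above 3 of the 4 controls, and control 4 was again the exception.
Against low fat, Slc1a2 was 1.99-fold higher with high protein (log2 0.99, SE 0.19, interval 0.58 to 1.4, edgeR adjusted p = 0.277), the smallest p of any of the 10 genes. Against low protein it was 1.88-fold higher (log2 0.91, SE 0.19, edgeR adjusted p = 0.787). Low protein against control gave -0.44 (SE 0.19, edgeR adjusted p = 0.682) and low fat against control -0.52 (SE 0.19, edgeR adjusted p = 0.53). For high protein against control it was 0.47 (SE 0.19, edgeR adjusted p = 0.762). Without control 4 the values were 0.65 for high protein, -0.37 for low fat and -0.27 for low protein against control.

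Slc1a2 and Oat were also the only 2 of the 10 genes that any alternative fit called. DESeq2 gave Slc1a2 an adjusted p of 0.0233 and Oat one of 0.0446 for high protein against low protein, and Slc1a2 one of 0.00219 for high protein against low fat. Over all 26 alternatives, the adjusted p ran from 0.0233 to 1 for Slc1a2 and from 0.0446 to 1 for Oat in high protein against low protein, and from 0.00219 to 0.741 for Slc1a2 in high protein against low fat. edgeR without control 4 gave Slc1a2 an adjusted p of 0.0394 there. With the kidney level as a covariate, the log2 fold changes of high protein against low protein were 0.92 for Slc1a2 and 0.98 for Oat, and those of high protein against low fat 1 for Slc1a2 and 0.81 for Oat. For low protein against control it was -0.45 for Slc1a2.

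Slc1a4, which carries alanine, serine and cysteine, ran the other way. Levels were 8.800, 7.516, 7.414 and 6.260 CPM with high protein, 11.00, 15.98, 16.53 and 12.75 with low fat, 13.55, 11.57, 15.64 and 8.248 with low protein, and 18.78, 7.510, 14.08 and 7.244 in control. The high protein libraries were tightly grouped and lay below every low fat library. Controls fell into a high pair and a low pair, and their range of 7.244 to 18.78 CPM overlapped that of each other diet. For high protein against low fat the log2 fold change was -0.91 (SE 0.28, interval -1.51 to -0.31, edgeR adjusted p = 0.425), and -0.9 with the kidney level as a covariate. For high protein against low protein it was -0.71 (SE 0.28, edgeR adjusted p = 0.946), and low protein 4 overlapped the high protein range. For high protein against control it was -0.67 (SE 0.28, edgeR adjusted p = 0.762), with values of -0.85 to -0.35 over the 26 alternatives.

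**Figure D3:**
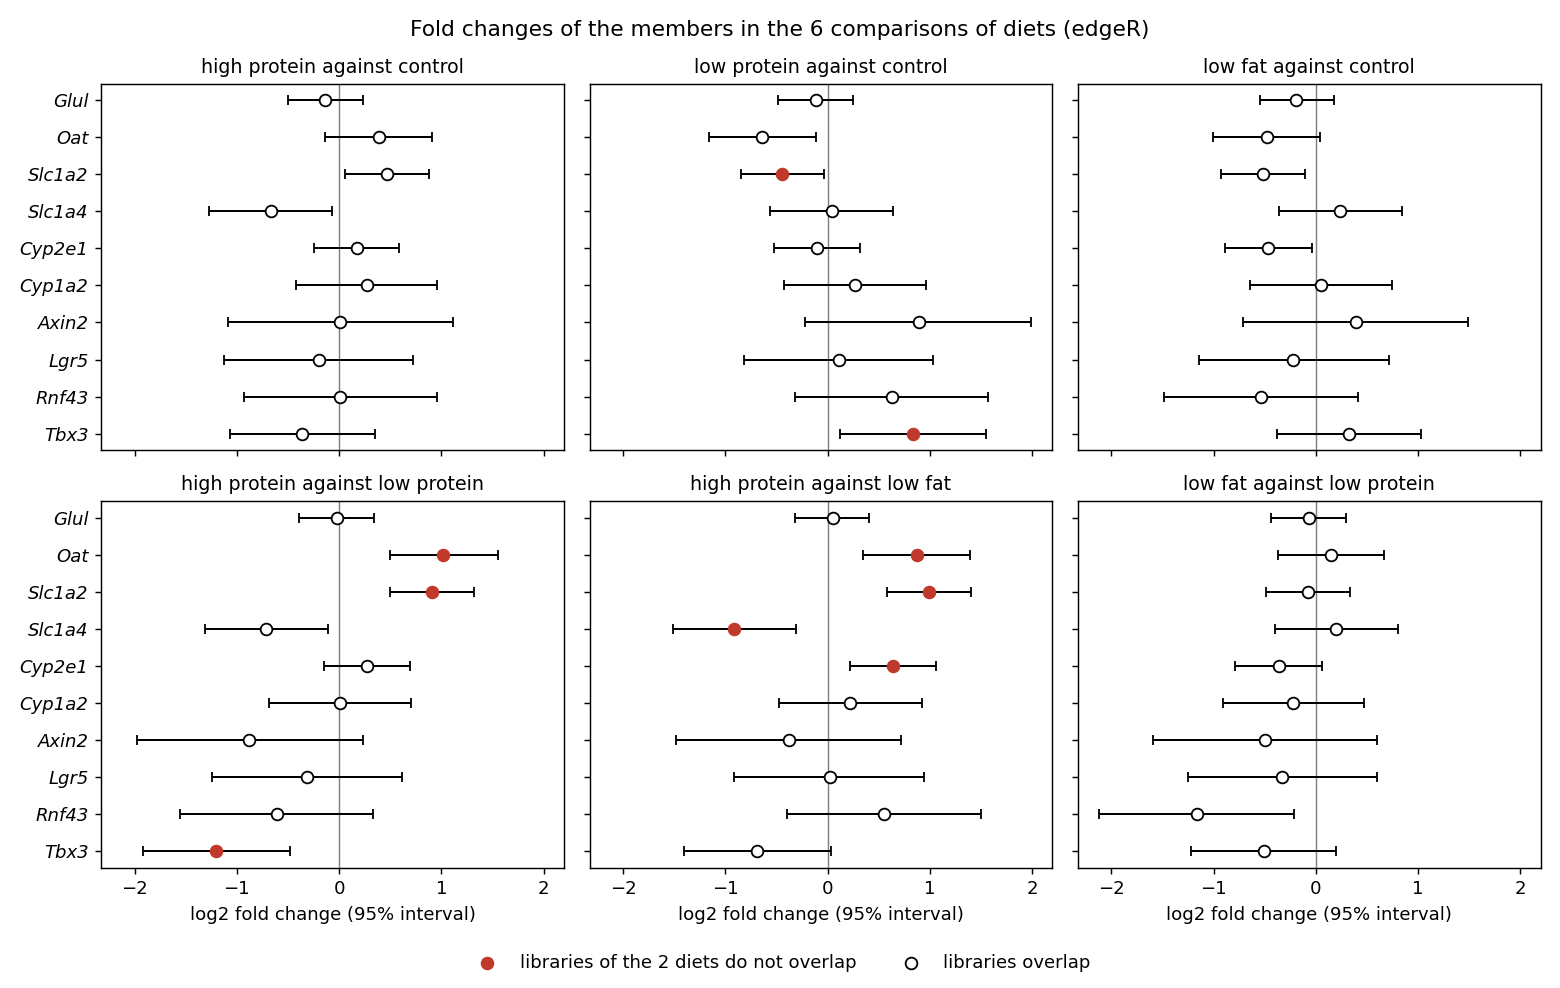
Log2 fold changes of the 10 genes from edgeR in the 6 comparisons of diets, with 95% intervals. Filled points mark comparisons in which the libraries of the 2 diets do not overlap: 4 in high protein against low fat, 3 in high protein against low protein and 2 in low protein against control.

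The cytochromes P450 parted ways. Cyp2e1 had 6153, 6179, 7147 and 7730 CPM with high protein, 4210, 4017, 4446 and 4806 with low fat, 5554, 6618, 4708 and 5631 with low protein, and 5332, 5697, 4053 and 9049 in control. Low fat libraries were the lowest group and all lay below the high protein libraries. With high protein Cyp2e1 was 1.56-fold higher than with low fat (log2 0.64, SE 0.2, edgeR adjusted p = 0.425), and log2 0.6 with the kidney level as a covariate. Low fat against control gave -0.47 (SE 0.2, edgeR adjusted p = 0.53), and -0.23 without control 4.
Cyp1a2 showed no such order. It had 400.8, 388.8, 408.6 and 305.9 CPM with high protein, 290.8, 295.5, 437.8 and 264.0 with low fat, 274.1, 322.0, 499.5 and 402.7 with low protein, and 417.5, 389.9, 337.2 and 101.2 in control. Control 4 was the lowest library by a wide margin, and the diets overlapped fully. The log2 fold change of high protein against low protein was 0.01 (SE 0.33, interval -0.69 to 0.7), an interval too wide to tell a modest difference from none.

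Of the Wnt targets, Tbx3 was highest with low protein. It had 9.650, 12.70, 16.21 and 8.445 CPM with high protein, 22.37, 20.69, 25.65 and 6.932 with low fat, 33.70, 23.03, 24.83 and 26.44 with low protein, and 21.72, 9.555, 13.89 and 15.29 in control. Every low protein library lay above every high protein library and every control. In low fat, 3 libraries stood at 20.69 CPM or more, and low fat 4 was the lowest of all 16.
The log2 fold change of high protein against low protein was -1.2 (SE 0.34, interval -1.92 to -0.48, edgeR adjusted p = 0.892). Low protein against control gave 0.84 (SE 0.34, edgeR adjusted p = 0.682), and 0.83 without control 4. With the kidney level as a covariate these values were -1.18 and 0.82. Tbx3 overlaps the antisense gene Tbx3os1, and with no stated strand setting reads of the pair cannot be told apart. Tbx3os1 was listed at 5.98 to 8.77 CPM with high protein, 5.45 to 8.11 with low fat, 6.44 to 10.8 with low protein and 1.75 to 6.36 in control, so the high protein and low protein ranges of the antisense gene overlapped. Its low protein libraries lay above all controls, as those of Tbx3 did. The part of antisense reads in the difference of Tbx3 between low protein and control was not tested.

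Axin2 and Rnf43 also had their highest means with low protein, within a wide spread. Axin2 had 5.590, 10.67, 8.902 and 2.590 CPM with high protein, 9.360, 7.637, 16.20 and 2.858 with low fat, 13.63, 18.36, 10.42 and 8.550 with low protein, and 10.95, 2.746, 9.061 and 4.758 in control. All diets overlapped. Low protein against control gave a log2 fold change of 0.89 (SE 0.52, interval -0.22 to 1.99, edgeR adjusted p = 0.687), and 0.77 with the kidney level as a covariate.
Rnf43 had 33.20, 26.65, 19.75 and 25.39 CPM with high protein, 19.14, 13.75, 29.01 and 9.869 with low fat, 35.69, 53.37, 42.93 and 28.58 with low protein, and 44.97, 20.60, 32.54 and 5.955 in control. Low fat libraries were the lowest on average, and 1 of them, low fat 3, just overlapped the low protein range. Low fat against low protein gave -1.16 (SE 0.45, interval -2.12 to -0.21, edgeR adjusted p = 1, exact permutation p = 0.0571). Low protein against control gave 0.63 (SE 0.44, edgeR adjusted p = 0.721), and 0.28 without control 4, the lowest Rnf43 library. A gene inside an intron on the same strand, 1110028F11Rik, had at most 320 reads in a library.
Lgr5 had 8.566, 2.779, 2.706 and 6.098 CPM with high protein, 3.363, 4.919, 5.703 and 5.980 with low fat, 8.843, 7.515, 5.513 and 3.151 with low protein, and 11.12, 3.951, 4.305 and 3.898 in control. No diet stood apart, and control 1 was the highest library. Its log2 fold changes lay between -0.33 and 0.11 over the 6 comparisons, with SEs of 0.43 to 0.44, so a difference of moderate size was not detectable at this spread.

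Tested over the 4 diets together, 5 of the 10 genes had an unadjusted p under 0.05 in edgeR, where 6.59% of all genes did. These were Slc1a2, Oat, Tbx3, Slc1a4 and Cyp2e1, in that order. Their edgeR adjusted p-values were 0.656 for Slc1a2, 0.695 for Oat and Tbx3, and 0.737 for Slc1a4 and Cyp2e1. By pair of diets, an unadjusted p under 0.05 was found for 2 of the 10 in high protein against control (6.22% of all genes), 3 in low protein against control (7.08%) and 2 in low fat against control (9.22%). It was found for 4 in high protein against low protein (5.17%), 4 in high protein against low fat (9.08%) and 1 in low fat against low protein (2.38%). Since the 10 genes were chosen with earlier results of these data known, these counts are no test of them as a set. The genes did not move as a block. Of the 10, 6 were above and 4 below in high protein against control (median log2 fold change 0.01, against -0.06 over all genes), and likewise in low protein against control (0.07, against -0.03). In low fat against control 4 were above and 6 below (-0.2, against -0.02). Without control 4, the counts for high protein against control were 4 above and 6 below. These 3 comparisons share the control libraries. High protein against low fat had 7 above and 3 below (median 0.14, against -0.02), high protein against low protein 4 and 6 (-0.17, against -0.02), and low fat against low protein 2 and 8 (-0.27, against 0).

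**Figure D4:**
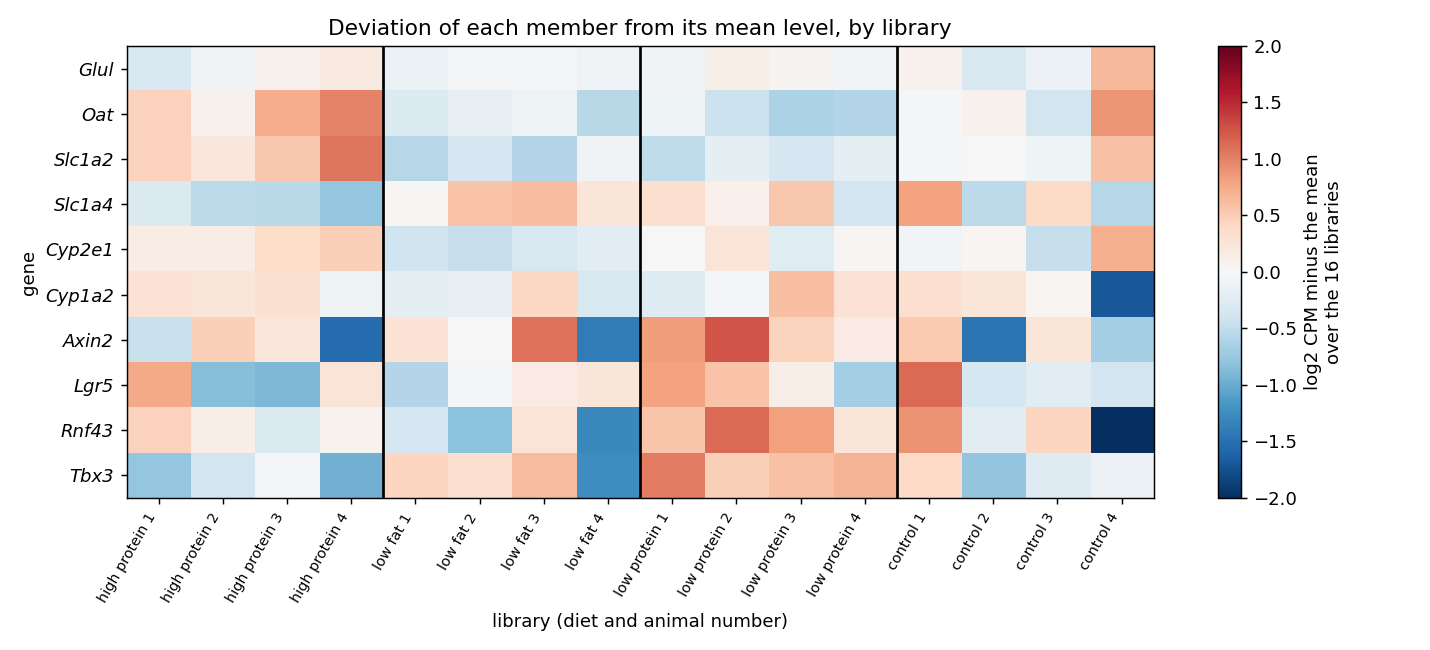
Deviation of each gene from its mean log2 CPM over the 16 libraries (colour, log2 units, clipped at -2 and 2), with libraries grouped by diet. Oat and Slc1a2 share a pattern that peaks in high protein 4, and control 4 combines high Glul, Oat, Slc1a2 and Cyp2e1 with the lowest Cyp1a2 and Rnf43.

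Across the 16 libraries, 45 pairs of the 10 genes were compared, and 22 had a positive Pearson correlation. After adjustment over the 45 pairs (permutation test, 100000 resamples, Benjamini-Hochberg), 9 pairs passed on Pearson's r, 5 positive and 4 negative. The positive pairs were Axin2 with Tbx3, Oat, Slc1a2 and Cyp2e1 with each other, and Cyp1a2 with Rnf43. Axin2 and Tbx3 had r = 0.83 and rho = 0.73 (permutation p 6e-05 and 0.0016, adjusted 0.0027 and 0.021). With the 2 libraries farthest from the median Axin2 level left out r was 0.77, without control 4 it was 0.84, and with diet means removed it was 0.81 (adjusted permutation p = 0.0036).

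Oat and Slc1a2 had r = 0.83 and rho = 0.71 (permutation p 0.00016 and 0.003, adjusted 0.0036 and 0.023), and r = 0.67 without the 2 farthest libraries, control 4 and high protein 4. With diet means removed r was 0.55 (adjusted permutation p = 0.065). Slc1a2 and Cyp2e1 had r = 0.78 and rho = 0.77 (permutation p 0.00029 and 0.00074, adjusted 0.0043 and 0.017), r = 0.67 without the 2 farthest libraries, and 0.72 with diet means removed (adjusted permutation p = 0.013). Oat and Cyp2e1 had r = 0.75 and rho = 0.64 (permutation p 0.001 and 0.0089, adjusted 0.0077 and 0.05), and r = 0.53 without the 2 farthest libraries.

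Slc1a4 ran against these genes. With Cyp2e1 it had r = -0.75 and rho = -0.8 (permutation p 0.00096 and 0.00032, adjusted 0.0077 and 0.014), and r = -0.77 without the 2 farthest libraries. With Slc1a2 it had r = -0.74 and rho = -0.72 (permutation p 0.00091 and 0.0021, adjusted 0.0077 and 0.021), and r = -0.62 without them. With diet means removed, the relation of Slc1a4 to Cyp2e1 was -0.6 (adjusted permutation p = 0.036) and that to Slc1a2 was -0.49 (adjusted permutation p = 0.098). Slc1a2 and Tbx3 had r = -0.66 and rho = -0.71 (permutation p 0.0052 and 0.0024, adjusted 0.029 and 0.021), r = -0.62 without the 2 farthest libraries, and -0.49 with diet means removed (adjusted permutation p = 0.099). Oat and Slc1a4 had r = -0.64 and rho = -0.58 (permutation p 0.0078 and 0.021, adjusted 0.039 and 0.085), and r = -0.46 without the 2 farthest libraries.

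The last of the 9 pairs, Cyp1a2 and Rnf43, had r = 0.74 and rho = 0.54 (permutation p 0.0028 and 0.036, adjusted 0.018 and 0.13). It rested on the extreme libraries: r was 0.39 without the 2 farthest and 0.47 without control 4. Glul passed with no other gene. Its values farthest from 0 were r = -0.69 with Cyp1a2 (rho = 0, permutation p 0.03 and 0.99, adjusted 0.1 and 0.99) and r = 0.58 with Cyp2e1 (rho = 0.43, permutation p 0.016 and 0.098, adjusted 0.07 and 0.23), which were -0.01 and 0.29 without control 4.

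Deviations from the 4 diet means were permuted freely over all 16 libraries, as if no means had been removed. Their permutation p-values, here and above, are therefore likely too small. With diet means removed 17 of the 45 pairs passed, 5 of the 9 above and 12 others. Glul was then in 4 of them, at 0.65 with Oat, 0.66 with Slc1a2, 0.73 with Cyp2e1 and -0.71 with Cyp1a2 (adjusted permutation p = 0.026 each). Without control 4 as well, these 4 were 0.23, 0.41, 0.28 and -0.02. Of the 12, 3 stayed farthest from 0 without control 4. These were Slc1a2 with Axin2 at -0.72 (-0.66 with it, adjusted permutation p = 0.026), Slc1a4 with Rnf43 at 0.59 (0.69 with it, adjusted permutation p = 0.02) and Slc1a4 with Lgr5 at 0.58 (0.6 with it, adjusted permutation p = 0.039). The rest of the 12 paired Cyp1a2 with Oat, Slc1a2 and Cyp2e1 or Rnf43 with Slc1a2 and Cyp2e1, and stood between -0.39 and -0.16 without control 4. By the same measure Axin2 and Tbx3 were at 0.82, Slc1a2 and Cyp2e1 at 0.53, Oat and Cyp2e1 at 0.51, Slc1a4 and Cyp2e1 at -0.44, and Oat and Slc1a2 at 0.27.

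**Figure D5:**
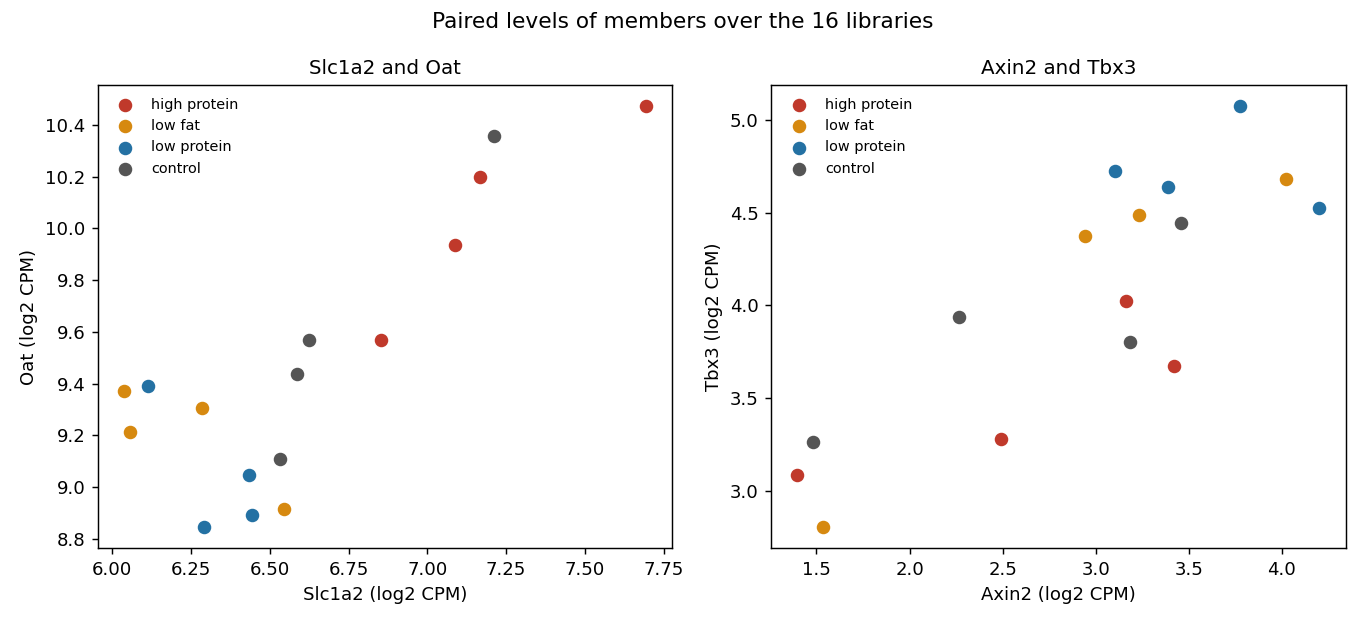
Log2 CPM of Slc1a2 against Oat (left) and of Axin2 against Tbx3 (right) in the 16 libraries, coloured by diet. Both pairs have r = 0.83, and in the left panel the high protein libraries and control 4 form the upper right.

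The gene with the profile nearest to each over the 16 libraries was sought among 10720 protein-coding genes with a mean of at least 2 CPM, by root mean square difference divided by the spread of the gene itself. For both Oat (0.467) and Slc1a2 (0.425) it was Lhpp, a phosphatase gene on chromosome 7 (132610638 to 132706420) that begins 34239 bases from Oat, with 2 genes between. Lhpp had 72.34, 49.49, 61.88 and 101.2 CPM with high protein, 40.41, 47.5, 29.4 and 37.55 with low fat, 39.4, 41.8, 35.25 and 40.12 with low protein, and 42.85, 46.32, 41.13 and 90.83 in control. It was higher in every high protein library than in every low fat and low protein one, with control 4 high. Because Lhpp was picked by its profile over these same libraries, this follows from the choice and is no separate result. Lhpp is also among the other pericentral genes counted below. For Axin2 the nearest was Tbx3 (0.556), and for Tbx3 it was Rhou (0.554). Glul was nearest to Prmt5 (0.422), Psme3 (0.477) and Psmd12 (0.484), Slc1a4 to Slc18b1 (0.46), Cyp2e1 to Hgsnat (0.424), Cyp1a2 to Actn1 (0.383), Rnf43 to Adamts7 (0.425) and Lgr5 to Nup37 (0.673).

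The ligands that drive the pericentral program were low in these bulk libraries. Wnt2 had 2.7 to 2.98 CPM with high protein, 1.99 to 2.62 with low fat, 2.08 to 2.56 with low protein and 1.05 to 4.6 in control. Its high protein libraries lay above all low fat and low protein libraries, and within the range of the controls. The log2 fold change was 0.31 (SE 0.32) against either diet (edgeR adjusted p = 0.998 against low protein and 0.768 against low fat). Of 10 general markers of liver endothelium, 10 were above and 0 below in high protein against low protein (median log2 fold change 0.21, against -0.02 over all genes), and 7 above and 3 below in high protein against low fat (0.1, against -0.02). Their summed level was 225 to 316 CPM with high protein, 231 to 266 with low fat, 220 to 253 with low protein and 190 to 363 in control, and their part in the Wnt2 levels was not tested. Rspo3 had 3.07 to 5.34 CPM with high protein, 3.77 to 5.27 with low fat, 4.63 to 5.91 with low protein and 4.59 to 5.99 in control. Wnt9b had 2.211, 1.032, 1.678 and 2.24 CPM with high protein, 2.294, 1.221, 1.28 and 1.958 with low fat, 0.968, 1.08, 1.333 and 1.754 with low protein, and 0.9581, 1.009, 1.335 and 0.9823 in control. Its log2 fold change was 0.74 (SE 0.3, edgeR adjusted p = 0.762) for high protein against control, and 0.69 without control 4. The summed level of 9 markers of central vein endothelium was 27.8 to 40.2 CPM with high protein, 32 to 36.4 with low fat, 28.5 to 34 with low protein and 27.4 to 73.3 in control.

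Of 25 Wnt ligand, receptor and inhibitor genes, 24 were tested and none was called by edgeR over all 16 libraries. In high protein against control 2 were above and 22 below (median log2 fold change -0.31, against -0.06 over all genes), and without control 4 the counts were 6 and 18 (-0.17, against -0.01). Low protein against control had 6 above and 18 below (-0.13), and 11 and 13 without control 4. Low fat against control had 9 above and 15 below (-0.07). Wnt11 and Porcn, whose product readies Wnt ligands for release, had the smallest p-values in low protein and in low fat against control. In high protein against control the smallest was that of Wnt9b, followed by Wnt11. Porcn stood at 2.04 to 2.89 CPM with low fat, 1.67 to 3.2 with low protein and 2.214 to 2.688 in 3 controls, with 15.84 CPM in control 4. Its log2 fold change of low protein against control was -1.38 (SE 0.54, edgeR adjusted p = 0.682), and -0.14 without control 4. Wnt11 was at or below 0.9211 CPM in every library except control 4 at 6.968 CPM. For low protein against control its log2 fold change was -2.76 (SE 1.08, edgeR adjusted p = 0.682), and -0.46 without control 4. The co-receptor genes Lrp6 and Lrp5 were the highest of the list, at mean levels of 76.89 and 75.24 CPM.

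Of 16 genes of the β-catenin destruction complex and its nuclear partners, 14 were tested and none was called by edgeR over all 16 libraries. Ctnnb1, which encodes β-catenin, was the highest at a mean of 210.6 CPM, with 174 to 213 CPM with high protein, 219 to 237 with low fat, 196 to 236 with low protein and 144 to 249 in control. In high protein against control 4 were above and 10 below (median log2 fold change -0.07), and 9 and 5 without control 4. In low protein against control the counts were also 4 and 10 (-0.11), and 9 and 5 without control 4. In low fat against control they were 3 and 11 (-0.18). Axin1, the partner scaffold of Axin2, had 19.2 to 22.2 CPM with low protein and 59.4 CPM in control 4, against 19.31 to 22.27 in the other 3 controls. Its log2 fold change of low protein against control was -0.54 (SE 0.28, edgeR adjusted p = 0.682), and -0.01 without control 4. Other members named by the smallest p were Gsk3b (log2 -0.36) and Bcl9l (0.42) for high protein against control, Dvl2 (-0.59) and Csnk1a1 (-0.25) for low fat against control, and Bcl9 (0.42) for low protein against control, with edgeR adjusted p-values of 0.546 to 0.762. Without control 4 the values were -0.09 for Gsk3b, 0.33 for Bcl9l, -0.18 for Dvl2, -0.07 for Csnk1a1 and 0.43 for Bcl9.

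Other Wnt feedback targets were mixed. Of 11 genes 10 were tested, with 5 above and 5 below in each comparison with control and none called. Notum, which encodes a secreted enzyme that inactivates Wnt ligands, had 26.42, 28.34, 24.81 and 20.0 CPM with low protein, against 21.11, 17.26, 16.84 and 18.85 in control. The log2 fold change was 0.43 (SE 0.16, edgeR adjusted p = 0.682), and 0.42 without control 4. Sp5, a Wnt-induced transcription factor gene singled out after its values were seen, had 1.849, 3.493, 2.57 and 1.565 CPM with high protein, against 4.892, 5.818, 4.61 and 4.056 with low protein. Those groups did not overlap, and the log2 fold change was -1.03 (SE 0.35, edgeR adjusted p = 0.921). Myc had 8.98 to 42.6 CPM with high protein, 4.39 to 58.1 with low fat, 3.4 to 17.9 with low protein and 16.2 to 314 in control. Its log2 fold change of low protein against control was -3.49 (SE 0.97, edgeR adjusted p = 0.682), and -2.32 without control 4, the highest library. Tcf7, Nkd1 and Znrf3 had overlapping ranges on all diets, and Lef1 was at or below 0.379 CPM in every library.

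Of 26 other pericentral genes, 24 were tested and none was called by edgeR over all 16 libraries. In high protein against low fat 15 were above and 9 below (median log2 fold change 0.16, against -0.02 over all genes), and 8 of the 24 had an unadjusted p under 0.05, where 9.08% of all genes did. Cyp2a5, a cytochrome P450 of coumarin oxidation, had 2344, 1211, 715.9 and 3600 CPM with high protein, 258.9, 314.1, 210.3 and 612.5 with low fat, 659.7, 836.4, 637.7 and 785.9 with low protein, and 478.1, 1278, 1166 and 1251 in control. High protein libraries lay above all low fat ones, and the log2 fold change was 2.5 (SE 0.46, edgeR adjusted p = 0.277). Reads of Cyp2 family genes can be shared among near-identical copies, and how they were counted is not given in the sources used here.
Cyp7a1, the rate-limiting enzyme gene of bile acid synthesis, had 39.42 to 554.3 CPM with high protein, 35.26 to 135.8 with low fat, 24.72 to 135.7 with low protein and 162.3 to 325 in control. Low fat and low protein libraries all lay below the controls. The log2 fold change was -1.93 (SE 0.67, edgeR adjusted p = 0.53) for low fat against control and -1.47 (SE 0.66, edgeR adjusted p = 0.682) for low protein against control. Nr1i3, the xenobiotic receptor CAR, had 33.4 to 47.1 CPM with low protein, against 21.3 to 40.3 in control (log2 0.56, SE 0.22, edgeR adjusted p = 0.682). Avpr1a, a vasopressin receptor gene, had 12.8 to 18.2 CPM with high protein, against 13.3 to 58.4 in control (log2 -1, SE 0.42, edgeR adjusted p = 0.762, and log2 -0.53 without control 4).
In high protein against control the list had 18 above and 6 below (0.18, against -0.06), and 15 and 9 without control 4. In low protein against control it had 15 and 9 (0.1). In low fat against control it had 9 and 15 (-0.08), and in low fat against low protein 5 and 19 (-0.17, against 0).

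The 20 periportal genes, the opposite pole of the lobule, were all tested and none was called by edgeR over all 16 libraries. In low protein against control 4 were above and 16 below (median log2 fold change -0.68, against -0.03 over all genes), and 11 of the 20 had an unadjusted p under 0.05, where 7.08% of all genes did. Without control 4 the counts were 7 and 13 and the median was -0.17. In high protein against low protein 16 were above and 4 below (0.6, against -0.02), and in high protein against low fat 15 and 5 (0.41, against -0.02). Ass1, an enzyme gene of the urea cycle, had 4295, 3490, 3910 and 5886 CPM with high protein, 3345, 2266, 2850 and 2626 with low fat, 2579, 1910, 2263 and 2668 with low protein, and 2940, 3916, 3616 and 9956 in control. Low protein libraries lay below all controls, with a log2 fold change of -1.12 (SE 0.31, edgeR adjusted p = 0.682), and -0.59 without control 4. Hsd17b6 had 164 to 212 CPM with low protein, against 89.8 to 136 in control, and was the member with the smallest p there (log2 0.75, SE 0.18, edgeR adjusted p = 0.682).
Tat and Got1, aminotransferase genes, gave log2 fold changes of -3.02 (SE 0.86) and -3.07 (SE 0.87) for low fat against control (edgeR adjusted p = 0.53 each). These rested on control 4, where Tat stood at 21330 and Got1 at 7402 CPM, and were -0.49 for Tat and -0.77 for Got1 without it. Without control 3 and high protein 1, edgeR called both, with -3.38 for Tat (adjusted p = 0.0395) and -3.42 for Got1 (adjusted p = 0.0455). In that fit of low fat against control, 3 of the 20 periportal genes, 3 of the 24 Wnt ligand, receptor and inhibitor genes, 1 of the 24 other pericentral genes and 15 of the 17 kidney genes were called. Over all genes, the same fit called 571 of 17871. Without control 4, 1 of the 20 periportal genes was called for high protein against low fat, where 19 of 18090 genes were called. Sdsl, a serine dehydratase-like gene, had a log2 fold change of -1.51 (SE 0.69, edgeR adjusted p = 0.762) for high protein against control, and 0.51 without control 4, which held 116.1 CPM.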

How the data were processed

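Total RNA of snap-frozen liver was sequenced with a directional kit, per the labels' protocols. The authors deposited whole-number read counts per gene for 16 libraries, with gene positions and exon length. The submitters' processing notes list STAR 2.7.0f, Trimmomatic 0.39, Subread 1.6.4, featureCounts and edgeR 3.32.1, with build GRCm38.p6. For the annotation release, strand setting and treatment of shared reads, no value is given in the sources used here. Symbols came from GENCODE M21, which matched 53861 of 54752 gene identifiers.

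Diets were taken from sample titles. The filter filterByExpr left 17833 genes, which were TMM-normalised and fitted with the quasi-likelihood model of edgeR 4.0.16 under R 4.3.3 over all 16 libraries (12 residual degrees of freedom), with two-sided contrasts and Benjamini-Hochberg adjustment over all genes at 0.05. CPM uses TMM-scaled library sizes, and profiles and correlations use log2 CPM with a prior count of 2. Single genes were also compared by exact permutation (70 assignments). Replicates of every diet differed by more than sampling noise.

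The 10 genes and the gene lists were chosen with earlier results of these data known. Named from the lists were up to 2 members with the smallest p in each comparison with control and up to 2 with the highest level, of which some are given only within counts. Wnt2, Rspo3, Sp5, Znrf3, Nkd1, Tcf7 and Lef1 were added after their values were seen. The steps were tested on simulated data. Alternatives were RLE and upper-quartile factors, other filters, DESeq2 1.42.0, limma 3.58.1 (voom with quality weights), only 2 diets in the fit, the animal number as a block, the kidney level as a covariate, and libraries left out. Those for correlations, ranges and list counts without control 4, for named list genes and for high protein against low fat and low fat against low protein were chosen after seeing the data. Apc, Tcf7l2, Apcdd1, Cyp2c54 and Aldh1a1 were not analysed here.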

Additional observations from a re-analysis of the deposited data

Results flagged for a closer look

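Over the 40 groups of 4 libraries (10 genes on 4 diets), 2 held a library far from the other 3 by Dixon's criterion, which chance alone meets in about 1 group in 20. Slc1a2 stood at 148.3 CPM in control 4, where the nearest other control had 98.63 CPM. Lgr5 stood at 11.12 CPM in control 1, where the nearest other control had 4.305 CPM.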

How the results depend on the processing

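Counts of called genes were 0 in the edgeR fit of all 16 libraries for each comparison, with 425 to 1644 genes at an unadjusted p under 0.05. DESeq2 called 81 genes for high protein against low fat, 79 over the 4 diets, 25 for high against low protein and, against control, 10 for low protein, 4 for low fat and 1 for high protein. For high protein against low fat, limma-voom called 1 and a fit of only those diets 16. Leaving out control 3 and high protein 1 together gave 571 for low fat against control and 138 over the 4 diets. Leaving out single libraries gave 0 to 19 for high protein against low fat (19 without control 4), 0 to 109 for low fat against control (109 without control 3), 0 to 2 between high and low protein (2 without high protein 3) and 0 to 1 over the 4 diets. The animal numbers did not pair the libraries (24 same-number correlations of -0.2 to 0.3, with 8 over 0.1), and the replicate block gave 0 calls in every comparison.

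Signs of some log2 fold changes turned, most of them small in edgeR except those of Wnt11 and Sdsl. The cause was not tested. With limma-voom, for high protein against control these were Glul 0.05, Rnf43 -0.19, Wnt11 1.73 and Sdsl 0.29, for low protein against control Glul 0.1, Cyp2e1 0.03, Cyp1a2 -0.01, Lgr5 -0.1 and Wnt11 1.52, for low fat against control Glul 0.02, Cyp1a2 -0.33 and Wnt11 0.53, and for high protein against low fat Lgr5 -0.08. With the replicate block they were Axin2 -0.08 (high protein against control), Cyp1a2 -0.01 (high protein against low protein) and Lgr5 -0.17 (high protein against low fat). With only 2 diets in the fit, Rnf43 was -0.01 (high protein against control), and with upper-quartile factors Cyp1a2 was -0.01 (high protein against low protein). Without control 3 and high protein 1, Lgr5 was -0.01 (low protein against control) and -0.37 (high protein against low fat), and for high protein against low protein Glul was 0.06 and Cyp1a2 -0.03. With the kidney level as a covariate, Lgr5 was 0.08 (low fat against control) and -0.39 (high protein against low fat), and for high protein against low protein Glul was 0.01 and Cyp1a2 -0.03.

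Leaving out single libraries also turned signs. For high protein against control the values ran from -0.26 to 0.08 for Glul, -0.03 to 0.44 for Cyp1a2, -0.27 to 0.33 for Axin2, -0.59 to 0.33 for Lgr5, -0.32 to 0.41 for Rnf43 and -1.82 to 0.51 for Sdsl. For low protein against control they ran from -0.24 to 0.1 for Glul, -0.15 to 0.34 for Slc1a4, -0.23 to 0.14 for Cyp2e1, -0.04 to 0.43 for Cyp1a2 and -0.11 to 0.62 for Lgr5. For low fat against control they ran from -0.31 to 0.02 for Glul, -0.27 to 0.2 for Cyp1a2, -0.06 to 0.69 for Axin2 and -0.4 to 0.29 for Lgr5. Between high and low protein they ran from -0.08 to 0.06 for Glul and -0.12 to 0.18 for Cyp1a2, and for high protein against low fat from -0.66 to 0.07 for Axin2 and -0.37 to 0.24 for Lgr5. Over 26 alternatives the value of high protein against low protein was 0.88 to 1.16 for Oat, 0.73 to 1.02 for Slc1a2 and -1.39 to -1.06 for Tbx3. That of high protein against low fat was 0.82 to 1.13 for Slc1a2, 0.6 to 0.71 for Cyp2e1 and -0.99 to -0.8 for Slc1a4. In all of these the libraries of the 2 diets did not overlap. Leaving out libraries could therefore hardly turn their signs, and the steady signs add nothing to that separation. RLE and upper-quartile factors moved the median of all genes by -0.025 to 0.056. With diet means removed 17 correlations passed, among them 5 of the 9 that passed before. Axin2 and Lgr5 were counted 96 to 913 and 100 to 588 times per library. Their spread beyond counting noise in edgeR (biological coefficient of variation) was 50.5% and 43.3%, which limits what can be seen of them.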
